A study of Mus musculus with 12 samples.

Results

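The genes described here encode the acid machinery of the lysosome: the proton pump (V-ATPase) and its accessory proteins, the cathepsins, other lysosomal hydrolases, lysosomal membrane and lipid transfer proteins, and the TFE transcription factors TFEB, TFE3 and MITF. They were taken by name, as every gene row whose single symbol starts with Atp6v or Atp6ap together with 30 named genes, which gave 56 of the 23996 gene rows in each table. Of these, 47 had an expression value (FPKM, fragments per unit of transcript length and of sequencing depth) of 1 or more in at least 1 of 4 values and are described below. RNA had been sequenced from Ly6Clow (patrolling) and Ly6Chigh (inflammatory) monocytes of C57Bl/6 mice, a common inbred strain, that had received muramyl dipeptide (MDP), the peptidoglycan fragment sensed by NOD2, or placebo. There were 3 samples for each subset and treatment, 12 in all. The MDP samples are titled 16 h, and the placebo samples are titled Naive with no time. No label gives the age of the mice, how the cells were sorted, or whether samples are separate animals or pools of them.

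Each deposited table holds 1 FPKM value for each of 2 conditions, named q2 and q1, and none for a single sample. No label or header says which of them is MDP and which is placebo, and the numbering need not be the same in both tables. Values are therefore given as q2 and q1, a difference always runs q2 over q1, and no direction is read as an effect of MDP. The replicate spread enters only through the authors' own Cuffdiff test, whose q-value under 0.05 is what "called" means below. The depth of the libraries is unknown.

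Lysosomes digest proteins, lipids, glycans and nucleic acids that monocytes and macrophages take up. The V-ATPase, a rotary pump made of a cytosolic V1 sector and a membrane V0 sector, acidifies the lumen, and the cathepsins are proteases that mature and work at that low pH. TFEB, TFE3 and MITF are related factors that enter the nucleus when lysosomes or nutrient supply are disturbed, bind E-box motifs near the start sites of many lysosomal genes and raise their transcription together.

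In Ly6Clow monocytes 15 of the 47 genes (31.9%) passed, 7 with a higher and 8 with a lower value in q2. The calls lay among the proteases, among other hydrolases, in the membrane group and in Mitf, with 2 of 18 in the proton pump. Of all 10876 tested genes with FPKM of 1 or more, 27.3% passed, 14.7% upward and 12.6% downward, so the share among the lysosomal genes was close to that of all genes. In Ly6Chigh monocytes 6 of the 47 (12.8%) passed, all 6 lower in q2, beside 15.2% of 10818 such genes, 7.33% upward and 7.82% downward. Without the FPKM minimum these shares were 26.3%, 14.2% and 12.2% in Ly6Clow and 14.6%, 7.07% and 7.54% in Ly6Chigh monocytes. In bulk RNA, fewer cells of a type and less RNA per cell cannot be told apart. The legumain gene Lgmn, the cathepsin E gene Ctse and the cathepsin S gene Ctss were called in both tables, each lower in q2. They are 6.38% of the 47, beside 9.96% of 10984 genes with FPKM of 1 or more that were called in both tables, 4.55% of them lower in both and 4.86% higher in both. Opposite directions were called for 0 of the 47, beside 60 of the 10984 (0.546%).

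**Figure D1:**
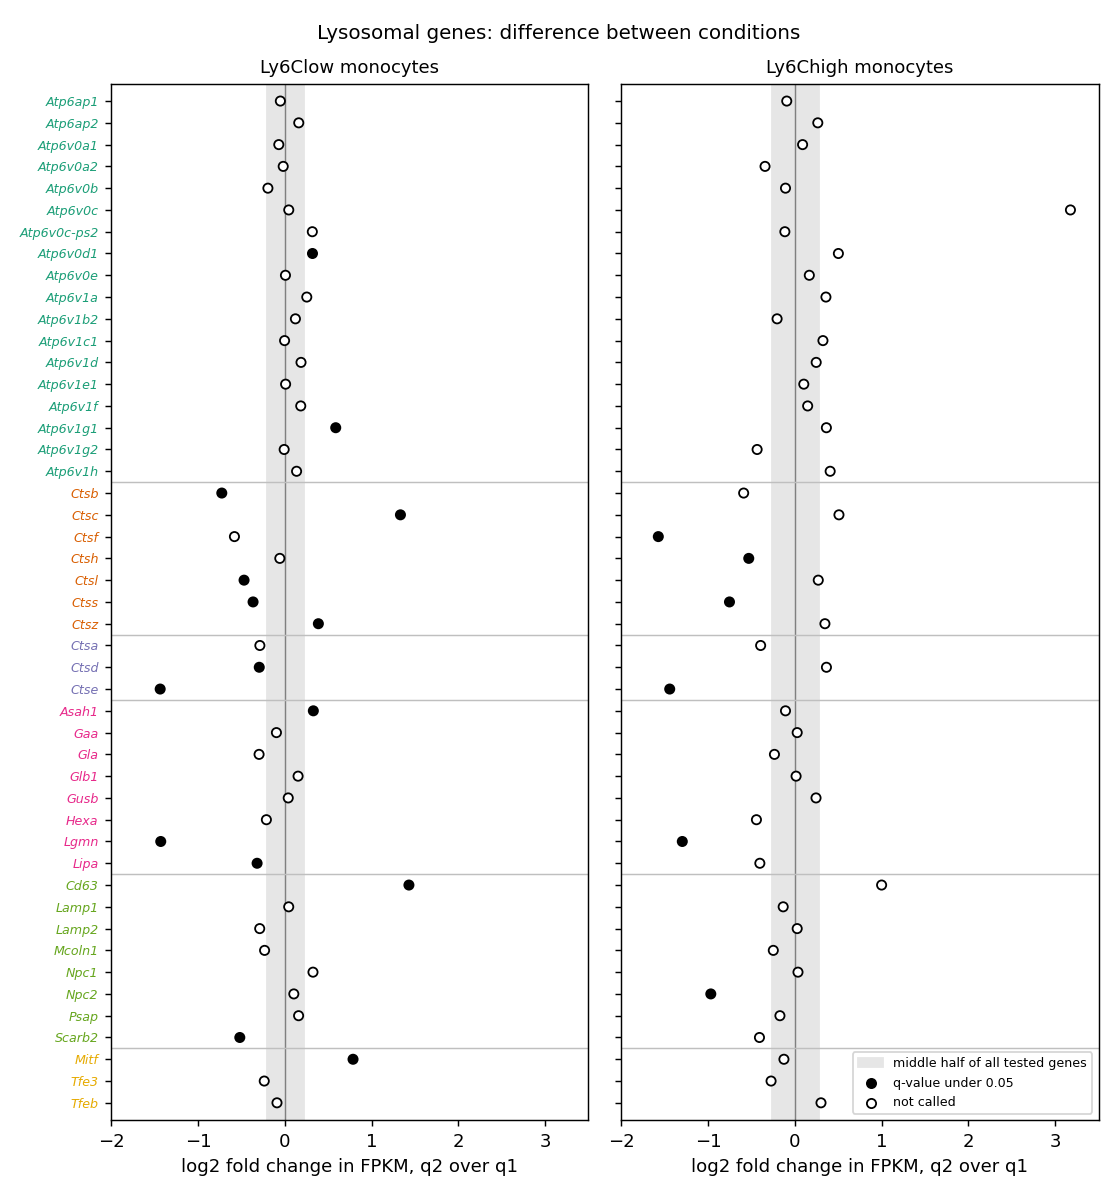
log2 fold change in FPKM, q2 over q1, of each of the 47 lysosomal genes in Ly6Clow (left) and Ly6Chigh monocytes (right), grouped by class. Filled points had a q-value under 0.05. The grey band is the interquartile range of all tested genes with FPKM of 1 or more and a finite fold change. The proton pump genes other than Atp6v0c lie between -0.43 and 0.59, and Ctse and Lgmn lie below -1.2 in both panels.

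RefSeq promoter windows (build GRCm38.p6, from 250 bases before to 50 bases after a start site) were found for 36 of the 47 genes, 8 of them with more than 1 window. The 6-letter E-box CACGTG, searched on both strands, stood in a window of 14 of these 36 genes, against 8.09% of the 27025 genes with a window. Its 7-letter form TCACGTG, which contains the E-box, stood in 12 of the 36, against 4.29% of all genes. The longer palindromic CLEAR motif, which contains both, stood in 0 of the 36, against 0.370% of all genes. Genes called in either table and genes called in neither held the 6-letter E-box in 5 of 13 and 9 of 23. The 7-letter form stood in 3 of 13 and 9 of 23, in the same order. The 27025 genes were not filtered by FPKM, while the 36 were. No test was made on these shares, and a match is not evidence that a factor was bound. The sites below, with the E-box in capitals, belong to the 5 called genes that hold one, except Ctsf, and to Lamp1 and Mcoln1, which were called in neither table.
Atp6v0d1: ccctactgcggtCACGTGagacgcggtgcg
Ctsd: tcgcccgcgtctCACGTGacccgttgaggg
Ctsl: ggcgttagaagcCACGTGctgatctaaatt
Lgmn: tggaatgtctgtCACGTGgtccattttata
Lamp1: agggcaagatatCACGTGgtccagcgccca
Mcoln1: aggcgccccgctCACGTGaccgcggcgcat
They lie at chr8:105566050-105566079 (minus strand), chr7:142387908-142387937 (minus), chr13:64370739-64370768 (minus), chr12:102439124-102439153 (minus), chr8:13159088-13159117 (plus) and chr8:3500462-3500491 (plus), in the same order. Ctsl is the gene of this set that holds the 6-letter form alone. Lamp1 carried 4 E-boxes within its window, and Ctsd and Mcoln1 carried 2 each.

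**Figure D2:**
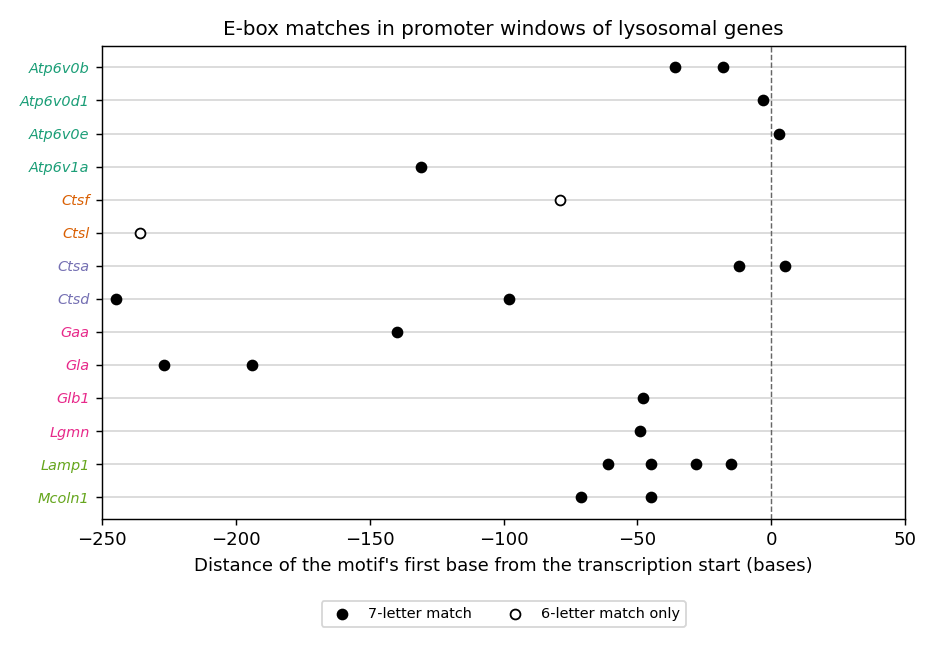
Position of each E-box in the promoter windows of the 14 lysosomal genes that hold one, as the distance in bases of its first base from the start site at 0. Filled points are matches to the 7-letter form and open points match the 6-letter form alone, which are those of Ctsf and Ctsl.

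The windows of Lgmn, called lower in both tables, and of Ctsc, the cathepsin gene called higher with the largest fold, are shown whole for comparison; Ctse has none in the table. Lgmn has 2 windows, and the 1 with the E-box, at chr12:102439043-102439342 on the minus strand, reads as follows.
Lgmn: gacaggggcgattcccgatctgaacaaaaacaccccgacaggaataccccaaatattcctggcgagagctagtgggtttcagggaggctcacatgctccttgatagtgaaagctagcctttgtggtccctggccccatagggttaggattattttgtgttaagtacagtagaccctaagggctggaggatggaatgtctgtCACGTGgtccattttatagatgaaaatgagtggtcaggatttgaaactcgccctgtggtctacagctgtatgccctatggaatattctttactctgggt
The window of Ctsc, at chr7:88277835-88278134 on the plus strand, holds no E-box.
Ctsc: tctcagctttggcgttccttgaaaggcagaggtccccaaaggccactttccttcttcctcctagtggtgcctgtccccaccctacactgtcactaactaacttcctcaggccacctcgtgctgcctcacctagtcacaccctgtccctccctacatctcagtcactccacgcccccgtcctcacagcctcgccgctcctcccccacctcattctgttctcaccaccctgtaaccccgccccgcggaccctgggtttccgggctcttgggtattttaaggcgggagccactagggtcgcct
GC content was 48.0% in this Lgmn window and 60.3% in the Ctsc window. The other Lgmn window, at chr12:102439679-102439978, holds no E-box, like that of Ctsc, and its GC content was 61%.

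The proton pump was expressed as a full set of the widely used subunits, and 2 of its 18 genes were called in Ly6Clow and 0 in Ly6Chigh monocytes. Of 26 rows with a pump symbol, 18 passed the FPKM minimum, 9 of the V1 sector, 7 of the V0 sector and 2 accessory proteins. The 7 include Atp6v0c-ps2, a row at the locus of Atp6v0c for which no gene type was found. It is counted as a pump gene here, though it may not be a separate subunit gene. The 8 that did not pass were Atp6ap1l, Atp6v0a4, Atp6v0d2, Atp6v0e2, Atp6v1b1, Atp6v1c2, Atp6v1e2 and Atp6v1g3, most of them isoforms known from kidney, osteoclasts, testis or other tissues. Atp6v0d2, the d subunit isoform of osteoclasts and fused macrophages, reached 0.0874 FPKM in q2 and 0.163 in q1 of Ly6Clow monocytes, and 0.0516 and 0.0646 in Ly6Chigh monocytes. Its widely expressed counterpart Atp6v0d1 stood at 124 FPKM in q2 and 99.2 in q1 of Ly6Clow monocytes, and at 166 and 117 in Ly6Chigh monocytes.

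In Ly6Clow monocytes 2 of the 18 pump genes were called, both higher in q2. Atp6v1g1, a subunit of the peripheral stalk that holds V1 to V0, was at 121 FPKM in q2 and 80.6 in q1, a 1.5-fold difference (the authors' deposited table gave q = 0.000418; chromosome 4, 63544765 to 63550701, mm10, plus strand, protein-coding). Atp6v0d1, which couples the rotor of V0 to V1, was 1.25-fold higher in q2 at the levels given above (the authors' deposited table gave q = 0.0143; chromosome 8, 105524470 to 105566040, minus strand). In Ly6Chigh monocytes 0 of the 18 were called by Cuffdiff, and 2 had an unadjusted p under 0.05. There Atp6v1g1 was at 158 FPKM in q2 and 123 in q1 (the authors' deposited table gave q = 0.204), and Atp6v0d1 at the levels given above (q = 0.0538).

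The catalytic subunits of V1 were among the genes not called. Atp6v1a, the ATP-hydrolysing A subunit, was at 28.8 FPKM in q2 and 24.1 in q1 of Ly6Clow monocytes (the authors' deposited table gave q = 0.0660) and at 51.6 and 40.3 in Ly6Chigh monocytes (q = 0.218). Atp6v1b2, the B subunit of most cells, was at 111 and 102 FPKM in q2 and q1 of Ly6Clow monocytes and at 189.9 and 219 in Ly6Chigh monocytes. The regulatory subunit gene Atp6v1h was at 31.9 and 29.1 FPKM in Ly6Clow and at 47.8 and 36.0 in Ly6Chigh monocytes. The 3 genes show both signs of difference, all within 1.33-fold. Of the other V1 genes, Atp6v1c1, Atp6v1d, Atp6v1e1 and Atp6v1f, parts of its stalks, had log2 fold changes of 0.00, 0.19, 0.01 and 0.18 in Ly6Clow monocytes and of 0.32, 0.25, 0.10 and 0.15 in Ly6Chigh monocytes. Atp6v1g2, a G isoform known from neurons, was low at 2.997 and 3.01 FPKM in Ly6Clow and at 2.08 and 2.82 in Ly6Chigh monocytes. The accessory proteins Atp6ap1 and Atp6ap2, which help to assemble V0, were at 178 and 185 FPKM and at 45.6 and 40.8 FPKM in q2 and q1 of Ly6Clow monocytes, and at 184 and 197 FPKM and at 57.9 and 48.2 FPKM in Ly6Chigh monocytes. None of these 7 was called in either table.

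Of the membrane sector, Atp6v0b and Atp6v0e were the most abundant single genes outside the Atp6v0c pair. Atp6v0b, a ring subunit of the rotor, was at 230.5 FPKM in q2 and 264 in q1 of Ly6Clow monocytes and at 267 and 287 in Ly6Chigh monocytes. Atp6v0e was at 215 and 214 FPKM in Ly6Clow and at 244 and 218 in Ly6Chigh monocytes. The a subunits, which set where the pump resides, were lower, with Atp6v0a1 at 10.6 and 11.1 FPKM and Atp6v0a2 at 18.7 and 19.0 in q2 and q1 of Ly6Clow monocytes. Tcirg1, the a3 isoform of lysosomes and osteoclasts, whose symbol falls outside the naming rule and which was named after its values were seen, was at 154 and 149.6 FPKM in Ly6Clow and at 183 and 226 in Ly6Chigh monocytes, and was called in neither table.

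The ring subunit gene Atp6v0c shares its locus (chromosome 17, 24163865 to 24169429) with the row named Atp6v0c-ps2, so reads may have been split between the rows. In Ly6Chigh monocytes Atp6v0c was listed at 184 FPKM in q2 and 20.3 in q1, a 9.04-fold difference that was not called (the authors' deposited table gave q = 0.436), beside 309 and 334 FPKM for Atp6v0c-ps2. In Ly6Clow monocytes the pair was at 46.2 and 44.8 FPKM and at 190.2 and 153 FPKM. The values of this pair are uncertain for that reason. Over the 16 pump genes without it, log2 fold changes ran between -0.19 and 0.59 in Ly6Clow monocytes, with an SD across genes of 0.19, and between -0.43 and 0.50 in Ly6Chigh monocytes, with an SD of 0.28. Over all tested genes with FPKM of 1 or more and a finite fold change, 10858 and 10794 genes, the SD was 0.55 and 0.71. Other outlying genes were kept. The pair was left out after seeing the data, and with it the pump's SD was 0.18 and 0.77. The interquartile range of the 16 genes was -0.01 to 0.18 in Ly6Clow monocytes, beside -0.20 to 0.22 over all tested genes. In Ly6Chigh monocytes it was -0.10 to 0.33, beside -0.27 to 0.28.

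**Figure D3:**
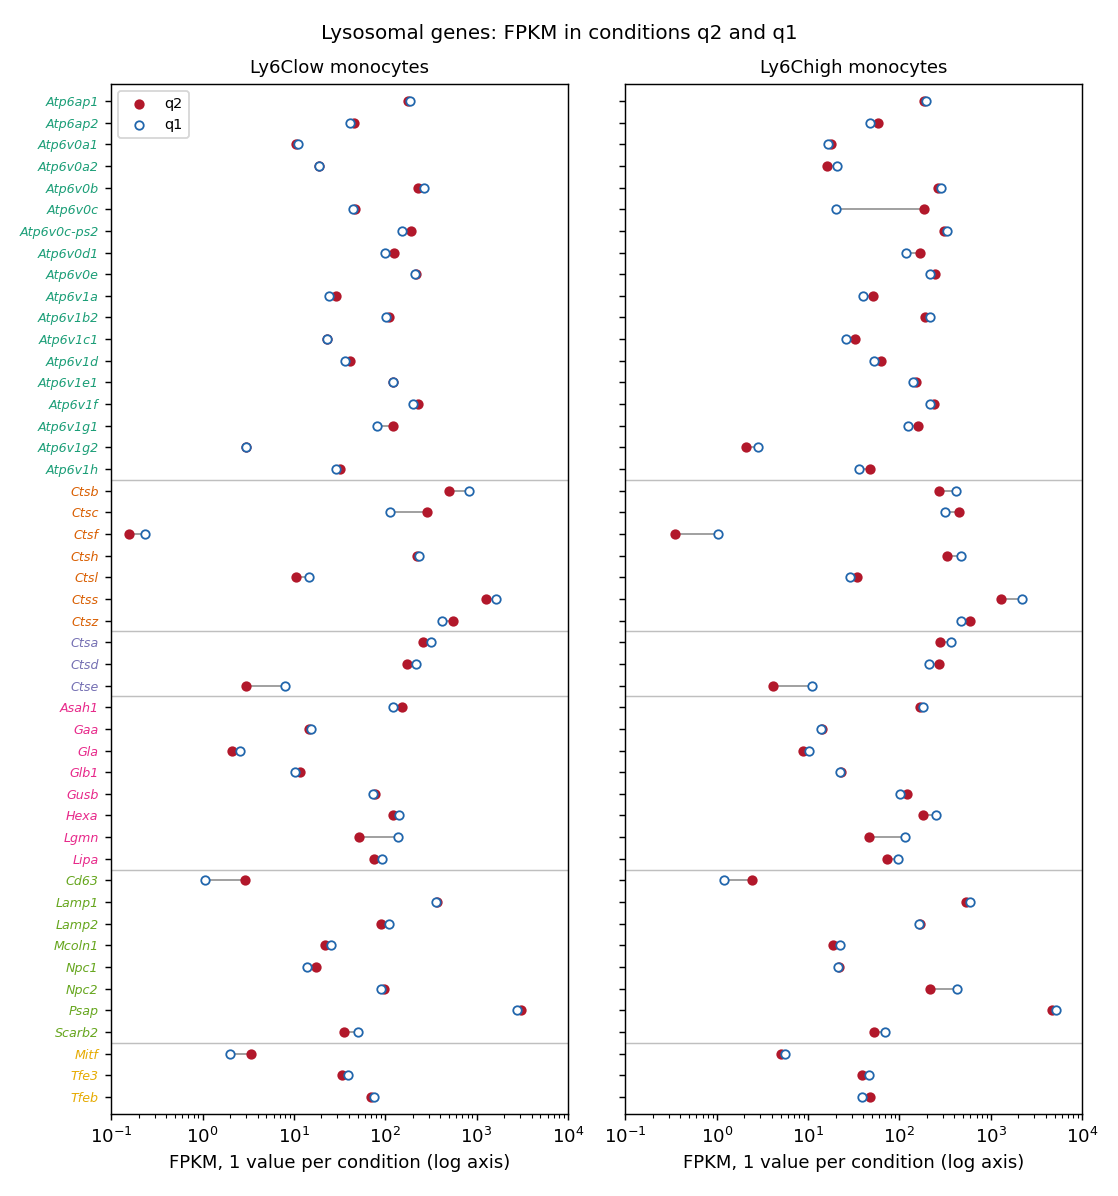
FPKM of each lysosomal gene in q2 (filled) and q1 (open) of Ly6Clow (left) and Ly6Chigh monocytes (right), on a log axis, with 1 value per condition and genes grouped by class. Psap and Ctss have the highest values in each of the 4 conditions, and the longest line is that of Atp6v0c in Ly6Chigh monocytes, which was not called.

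The cathepsins moved in both directions. Of the 8 cysteine cathepsin genes 7 passed the FPKM minimum; Ctsk, the collagen-degrading cathepsin of osteoclasts, lay just under it with a highest value of 0.888 FPKM, and Ctsf just above it with 1.03. In Ly6Clow monocytes 2 of the 7 were called higher and 3 lower in q2. Cathepsin C, which activates granule serine proteases by trimming them, had the largest fold, with Ctsc at 285 FPKM in q2 and 113 in q1, a 2.52-fold difference (the authors' deposited table gave q = 0.000418; chromosome 7, 88278093 to 88310875, plus strand, protein-coding). Ctsz, a carboxypeptidase, was 1.31-fold higher, at 552 and 422 FPKM (the authors' deposited table gave q = 0.0105). Its locus is shared with Nelfcd.

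Ctsb, Ctsl and Ctss were called lower in q2 of Ly6Clow monocytes. Ctsb, an abundant protease of the degradative lysosome, was at 505 FPKM in q2 and 835 in q1, a 1.65-fold difference (the authors' deposited table gave q = 0.000788; chromosome 14, 63122462 to 63177793, plus strand). Its locus is shared with Fdft1. Ctsl was 1.38-fold lower, at 10.5 and 14.6 FPKM (the authors' deposited table gave q = 0.00114). Ctss, the protease that trims the invariant chain for MHC class II loading, was 1.29-fold lower, at 1255 and 1617 FPKM (the authors' deposited table gave q = 0.0394). Ctsh, an aminopeptidase, was at 225 and 234 FPKM (the authors' deposited table gave q = 0.767), and Ctsf was not tested there, at 0.156 and 0.233 FPKM.

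In Ly6Chigh monocytes 3 of the 7 cysteine cathepsin genes were called, all 3 lower in q2. Ctss was 1.69-fold lower, at 1292 FPKM in q2 and 2178 in q1 (the authors' deposited table gave q = 0.0142; chromosome 3, 95526786 to 95556405, plus strand). Ctsh was 1.44-fold lower, at 331 and 478 FPKM (the authors' deposited table gave q = 0.0484). Ctsf, a low-abundance member listed at 0.347 and 1.03 FPKM, was 2.98-fold lower (the authors' deposited table gave q = 0.0479); it entered the set through its q1 value alone. Ctsb and Ctsc did not pass, at 274 and 412 FPKM (q = 0.0583) and at 450.4 and 317 FPKM (the authors' deposited table gave q = 0.0804). Ctsz was at 597 and 469 FPKM (q = 0.304) and Ctsl at 34.4 and 28.5 FPKM (the authors' deposited table gave q = 0.444). The signs of Ctsl were opposite in the 2 tables, with a call in Ly6Clow monocytes alone; the difference between subsets was not tested.

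The 3 remaining cathepsins belong to other protease families. Ctse, an intracellular aspartic protease of antigen-presenting and epithelial cells, was 2.71-fold lower in q2 of Ly6Clow monocytes, at 2.97 FPKM in q2 and 8.04 in q1 (the authors' deposited table gave q = 0.000418), and 2.72-fold lower in Ly6Chigh monocytes, at 4.12 and 11.2 FPKM (the authors' deposited table gave q = 0.000859; chromosome 1, 131638314 to 131675507, plus strand, protein-coding). Ctsd, the main lysosomal aspartic protease, was 1.23-fold lower in q2 of Ly6Clow monocytes, at 175 and 215 FPKM (the authors' deposited table gave q = 0.0355), and was at 271 and 211 FPKM in Ly6Chigh monocytes (q = 0.226). Ctsa, a serine carboxypeptidase that also protects beta-galactosidase and neuraminidase, was at 262 and 319.8 FPKM in Ly6Clow and at 282 and 370.1 in Ly6Chigh monocytes and was called in neither. Its locus is shared with Neurl2 and Pltp. Beside the cathepsins, markers of dendritic cells also differed between conditions, as given with the other cell types at the end; their part in the Ctse and Ctss values was not tested.

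Inhibitors of cysteine cathepsins had a list of 10 genes, of which 3 passed the FPKM minimum. Cstb, the cytosolic inhibitor stefin B, was called higher in q2 in both tables, 1.81-fold in Ly6Clow monocytes at 65.4 FPKM in q2 and 36.2 in q1 (the authors' deposited table gave q = 0.000418) and 1.96-fold in Ly6Chigh monocytes at 257 and 131 FPKM (q = 0.000859). Cst7, cystatin F, which keeps cathepsin C inactive, was called higher in Ly6Clow monocytes at 2.60 and 0.662 FPKM (the authors' deposited table gave q = 0.000418) and was at 2.78 and 1.77 FPKM in Ly6Chigh monocytes (q = 0.367). Cst3, the secreted cystatin C, was at 2679 and 3375 FPKM in Ly6Clow and at 1943 and 1932 in Ly6Chigh monocytes and was called in neither.

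Among the 8 other hydrolases, all of which passed the FPKM minimum, Lgmn had the largest fold. Legumain is a cysteine protease that cuts after asparagine and matures several cathepsins. It was 2.69-fold lower in q2 of Ly6Clow monocytes, at 51.8 FPKM in q2 and 139.7 in q1 (the authors' deposited table gave q = 0.000418), and 2.46-fold lower in Ly6Chigh monocytes, at 46.8 and 115 FPKM (the authors' deposited table gave q = 0.000859; chromosome 12, 102394098 to 102439697, minus strand, protein-coding). In Ly6Clow monocytes Lipa, the acid lipase that frees cholesterol and fatty acids from lipoproteins, was also lower, 1.25-fold at 74.7 and 93.2 FPKM (the authors' deposited table gave q = 0.0141), and Asah1, the acid ceramidase, was 1.26-fold higher at 151 and 120.3 FPKM (the authors' deposited table gave q = 0.0141). In Ly6Chigh monocytes Lipa was at 73.1 and 96.7 FPKM (q = 0.141) and Asah1 at 170.3 and 183 FPKM (the authors' deposited table gave q = 0.810).

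The glycosidases were not called. Hexa, the alpha chain of hexosaminidase A, was at 121 FPKM in q2 and 140.4 in q1 of Ly6Clow monocytes and at 183 and 249 in Ly6Chigh monocytes. Gusb, beta-glucuronidase, was at 76.4 and 74.3 FPKM in Ly6Clow and at 120.4 and 102 in Ly6Chigh monocytes. Gaa, Gla and Glb1, which cut glycogen, alpha-galactosides and beta-galactosides, had log2 fold changes in FPKM of -0.10, -0.30 and 0.15 in Ly6Clow monocytes and of 0.03, -0.23 and 0.01 in Ly6Chigh monocytes.

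Of the 8 membrane, lipid transfer and activator genes, 1 was called higher and 1 lower in q2 of Ly6Clow monocytes, and 1 was called lower in Ly6Chigh monocytes. Cd63, a tetraspanin of late endosomes, had a low level and was 2.70-fold higher in Ly6Clow monocytes, at 2.89 FPKM in q2 and 1.07 in q1 (the authors' deposited table gave q = 0.00114), and was at 2.42 and 1.21 FPKM in Ly6Chigh monocytes (q = 0.159). Scarb2, the receptor LIMP-2 that carries glucocerebrosidase to lysosomes, was 1.43-fold lower in Ly6Clow monocytes, at 35.1 and 50.3 FPKM (the authors' deposited table gave q = 0.000418), and was at 52.6 and 69.8 FPKM in Ly6Chigh monocytes (q = 0.141). Npc2, the luminal cholesterol carrier, was 1.96-fold lower in Ly6Chigh monocytes, at 219 and 429 FPKM (the authors' deposited table gave q = 0.000859; chromosome 12, 84754559 to 84773112, minus strand), and was at 97.3 and 90.5 FPKM in Ly6Clow monocytes (q = 0.540). Npc1, the membrane partner that takes cholesterol from Npc2, was at 17.3 and 13.8 FPKM in Ly6Clow (the authors' deposited table gave q = 0.0711) and at 22 and 21.5 in Ly6Chigh monocytes.

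Psap, the precursor of the saposins that help hydrolases reach sphingolipids, had the highest FPKM of the 47 genes. It was at 3067 FPKM in q2 and 2747 in q1 of Ly6Clow monocytes (the authors' deposited table gave q = 0.708) and at 4639.6 and 5226 in Ly6Chigh monocytes (q = 0.854). The major membrane proteins Lamp1 and Lamp2, which coat the inner face of the lysosome, were at 372 and 361 FPKM and at 91.0 and 111 FPKM in Ly6Clow monocytes, and at 535 and 587 FPKM and at 166 and 163 FPKM in Ly6Chigh monocytes. Neither was called, with Lamp2 at q = 0.0509 in the authors' deposited table for Ly6Clow monocytes. Mcoln1, the calcium channel whose opening releases TFEB to the nucleus, was at 21.7 and 25.5 FPKM in Ly6Clow and at 18.7 and 22.2 in Ly6Chigh monocytes and was called in neither.

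Of the 3 TFE factors, Mitf was called in Ly6Clow monocytes and none in Ly6Chigh monocytes, where Cuffdiff gave 0 of 3 an unadjusted p under 0.05. Mitf, the factor of melanocytes and osteoclasts in this family, was 1.72-fold higher in q2 of Ly6Clow monocytes, at 3.42 FPKM in q2 and 1.98 in q1 (the authors' deposited table gave q = 0.000418; chromosome 6, 97807058 to 98021358, plus strand, protein-coding), and was at 5.07 and 5.53 FPKM in Ly6Chigh monocytes (q = 0.804). Tfeb was at 70.1 and 74.6 FPKM in Ly6Clow (q = 0.610) and at 48.1 and 39.0 in Ly6Chigh monocytes (the authors' deposited table gave q = 0.344). Tfe3 was at 33.5 and 39.4 FPKM in Ly6Clow (q = 0.0945) and at 38.7 and 46.8 in Ly6Chigh monocytes (the authors' deposited table gave q = 0.392). These are levels of RNA; where the proteins reside in the cell, on which their activity depends, was not measured. The family's other member Tfec, which lies outside the named genes, was 5.25-fold higher in q2 of Ly6Chigh monocytes, at 31.3 and 5.96 FPKM (the authors' deposited table gave q = 0.000859), and was at 0.334 and 0.155 FPKM in Ly6Clow monocytes.

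Taken as sums of FPKM, each class differed by 1.30-fold or less between conditions. The pump summed to 1770.2 FPKM in q2 and 1651 in q1 of Ly6Clow monocytes, and to 2387 and 2120.0 in Ly6Chigh monocytes. Without the Atp6v0c pair the ratio of q2 over q1 was 1.06 and 1.07 in the 2 tables. The cysteine cathepsins summed to 2832 FPKM in q2 and 3237 in q1 of Ly6Clow monocytes, and to 2979 and 3884 in Ly6Chigh monocytes, of which Ctss made up 44.3% and 49.96% and then 43.4% and 56.1%. Without Ctss the ratio of the cysteine cathepsin sum, q2 over q1, was 0.974 in Ly6Clow and 0.989 in Ly6Chigh monocytes. All 47 genes together held 1.63% and 1.68% of the summed FPKM of all genes in q2 and q1 of Ly6Clow monocytes, and 1.97% and 2.19% in Ly6Chigh monocytes. No test was made on these sums.

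**Figure D4:**
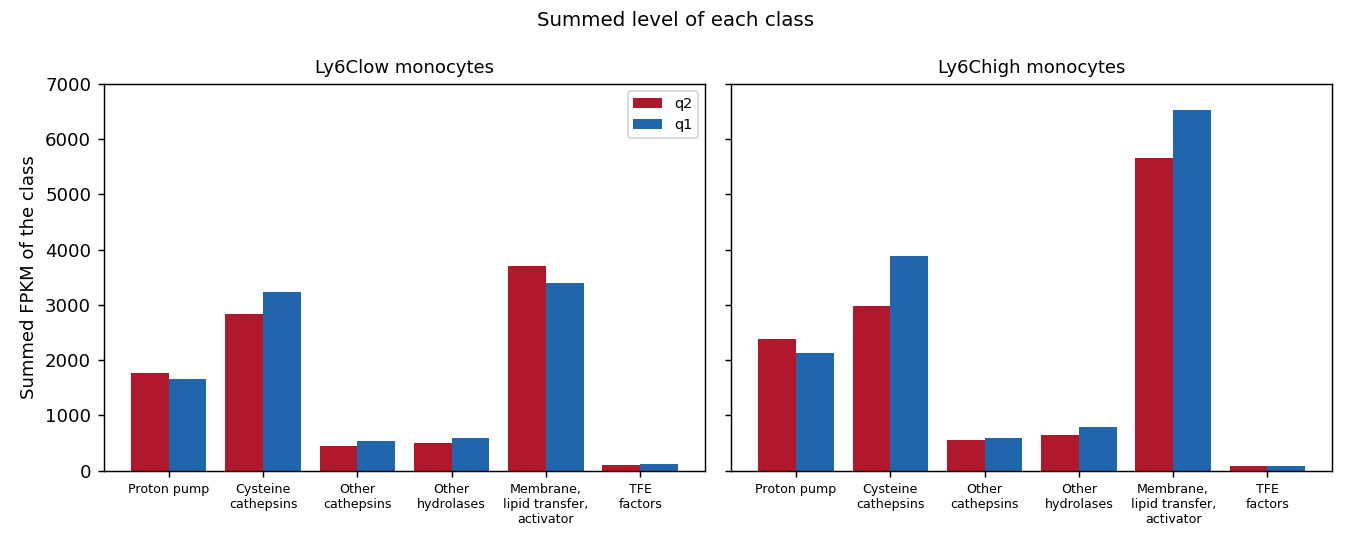
Summed FPKM of each lysosomal class in q2 and q1 of Ly6Clow (left) and Ly6Chigh monocytes (right), 1 value per condition with no error. In Ly6Chigh monocytes the cysteine cathepsins are at 2979 in q2 and 3884 in q1, and the membrane, lipid transfer and activator class, most of it Psap, at 5656 and 6520.1.

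The median log2 fold change of each class is given as a description beside that of all tested genes with FPKM of 1 or more, which was 0.00 in Ly6Clow and 0.01 in Ly6Chigh monocytes. In Ly6Clow monocytes it was 0.08 for the pump, -0.37 for the cysteine cathepsins, -0.29 for the other cathepsins, -0.15 for the other hydrolases, 0.07 for the membrane class and -0.09 for the TFE factors. In Ly6Chigh monocytes the medians were 0.16, -0.53, -0.39, -0.17, -0.15 and -0.13 in the same order of classes. The cysteine cathepsin medians rest on Ctsf, which was under 1 FPKM in 3 of its 4 values. With genes under 5 FPKM left out they were -0.21 in Ly6Clow and -0.13 in Ly6Chigh monocytes.

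Most of these genes had lower values in the Ly6Clow table than in the Ly6Chigh table. This compares tables that may have been normalized separately, by the geometric mean of q2 and q1, and no test was made. Of the 47 genes 8 were higher and 39 lower in Ly6Clow monocytes, with a median log2 ratio of -0.43, where over 10870 genes with FPKM of 1 or more 5474 were higher and 5396 lower and the median was 0.00. In the pump 16 of 18 were lower, with a median log2 ratio of -0.34. Among genes with both means at 1 FPKM or more, the largest ratios were those of Gla, 4.03-fold lower at 2.34 FPKM in Ly6Clow and 9.43 in Ly6Chigh monocytes, and Npc2, 3.27-fold lower at 93.8 and 307 FPKM. Ctsf, which is in the set through 1 Ly6Chigh value, had both means under 1 FPKM, at 0.191 and 0.599. Ctsl was 2.53-fold, Ctsc 2.10-fold, Glb1 2.07-fold and Mitf 2.03-fold lower. The locus of Glb1 is shared with Tmppe. The 2 genes with the largest ratios in the other direction were Ctsb, 1.93-fold higher at 649.5 FPKM in Ly6Clow and 336 in Ly6Chigh monocytes, and Tfeb, 1.67-fold higher at 72.3 and 43.3 FPKM.

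**Figure D5:**
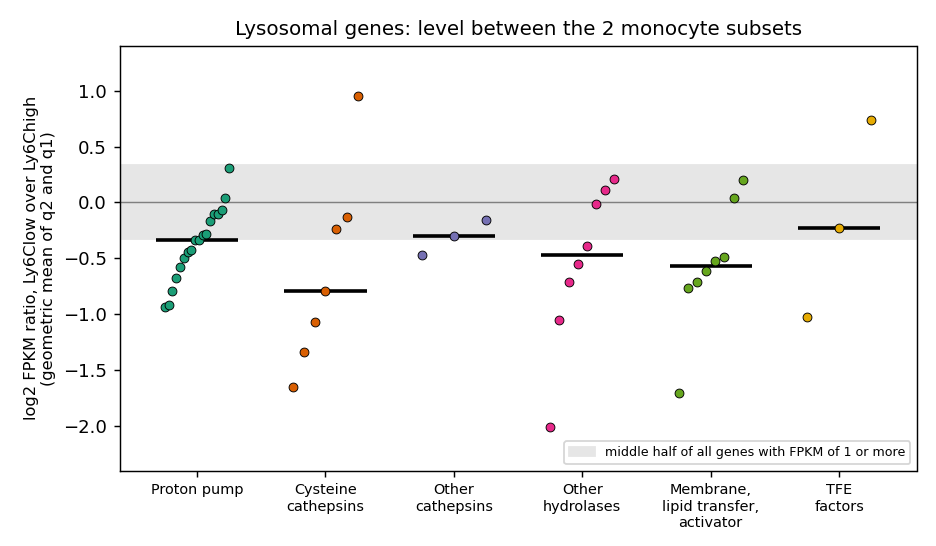
log2 ratio of FPKM, Ly6Clow over Ly6Chigh, for each lysosomal gene (points) by class, from the geometric mean of q2 and q1, with the class median as a bar and the interquartile range of all genes with FPKM of 1 or more in grey. The medians of the 6 classes lie between -0.79 and -0.23.

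Other genes of the lysosomal pathway, from lists chosen by function, were called in both directions. Of all tested genes with FPKM of 1 or more, 14.7% were called higher and 12.6% lower in Ly6Clow monocytes. In Ly6Chigh monocytes these shares were 7.33% and 7.82%. They are the shares to set beside each count of listed or marker genes below, and no list was tested against them. Of 38 other hydrolases 5 were called higher and 4 lower in q2 of Ly6Clow monocytes, and 2 higher and 6 lower in Ly6Chigh monocytes. Hgsnat, which acetylates heparan sulfate for its breakdown, was lower in both, 1.83-fold in Ly6Clow monocytes at 30.9 FPKM in q2 and 56.7 in q1 (the authors' deposited table gave q = 0.000418) and 2.22-fold in Ly6Chigh monocytes at 41.4 and 91.8 FPKM (q = 0.000859). Ppt2, a lysosomal thioesterase, was also lower in both, 1.5-fold at 41.3 and 61.7 FPKM and 1.89-fold at 41.9 and 79.3 FPKM. Naaa, an amidase of bioactive lipids, was 1.88-fold higher in Ly6Clow monocytes at 139 and 74.1 FPKM, and Ggh, which trims folate, was higher in both, 1.80-fold at 57.7 and 32.0 FPKM in Ly6Clow and 1.57-fold at 102 and 65.0 FPKM in Ly6Chigh monocytes. Rnaset2b, a near-identical copy of Rnaset2a whose reads can be split, was 3.08-fold higher at 5.24 and 1.70 FPKM in Ly6Chigh monocytes.

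Of 24 other membrane and activator genes 2 were called higher and 2 lower in Ly6Clow monocytes, and 0 were called in Ly6Chigh monocytes. Gm2a, the activator of ganglioside breakdown, was 1.44-fold higher in q2 of Ly6Clow monocytes at 454 and 314 FPKM (the authors' deposited table gave q = 0.00148), Slc29a3, a nucleoside transporter, was 1.45-fold higher and Laptm4b 1.48-fold lower. Of 9 other proton pump genes, the a3 subunit gene Tcirg1 named above among them, 1 was called in each table. Dmxl2 was higher in Ly6Clow monocytes at 0.453 and 0.221 FPKM. Rogdi, which with Dmxl2 helps assemble V1 on V0, was 1.82-fold lower in Ly6Chigh monocytes at 29.3 and 53.3 FPKM (the authors' deposited table gave q = 0.000859). Of 20 sorting genes 2 were higher and 2 lower in Ly6Clow and 1 higher and 1 lower in Ly6Chigh monocytes. Sort1, the receptor sortilin, was lower in both, 1.64-fold at 22.8 and 37.4 FPKM in Ly6Clow and 1.72-fold at 22.7 and 39.0 FPKM in Ly6Chigh monocytes. Igf2r, the mannose 6-phosphate receptor that delivers hydrolases, was higher in both, 1.55-fold at 5.19 and 3.34 FPKM and 7.17-fold at 1.53 and 0.213 FPKM, at a locus shared with 2 other rows. Ap1b1, a subunit of the AP-1 sorting adaptor, was 1.37-fold higher in Ly6Clow monocytes at 33.8 and 24.7 FPKM.

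A list of 21 genes held Tfec and genes that control the TFE factors, such as those of mTORC1, folliculin and calcineurin. In Ly6Clow monocytes 2 were lower, Flcn 1.24-fold and the calcineurin subunit gene Ppp3r1 1.22-fold. In Ly6Chigh monocytes the 1 called was Tfec, itself a factor of the family. Of 17 autophagy genes 1 was higher and 3 lower in Ly6Clow monocytes, and 1 higher and 1 lower in Ly6Chigh monocytes. Uvrag was lower in both, 1.52-fold at 27.5 and 41.8 FPKM in Ly6Clow and 1.46-fold at 32.0 and 46.7 FPKM in Ly6Chigh monocytes, and Atg9b was higher in both at low levels, 2.2-fold at 0.760 and 0.346 FPKM and 2.25-fold at 1.45 and 0.647 FPKM. Map1lc3a was 1.41-fold lower in Ly6Clow monocytes.

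Genes that define the subsets followed the labels, since Ly6c2 was at 3.98 and 5.78 FPKM in q2 and q1 of the Ly6Clow table and at 1054 and 1312 in the Ly6Chigh table, and Treml4 at 503 and 668 and at 74.6 and 70.3. Genes shared by monocytes differed between conditions, with 1 of 6 higher and 3 lower in Ly6Clow and 3 lower in Ly6Chigh monocytes, with Csf1r among the lower in both. The whole list of Ly6Chigh markers summed to 149 and 151 FPKM in the Ly6Clow table and to 3993 and 4243 in the Ly6Chigh table, and that of Ly6Clow markers to 5472 and 6426 and to 1302 and 1325. Markers of other cells also moved with the conditions, by counts of genes called and by the summed FPKM of the list in q2 and q1. In Ly6Clow monocytes these were 6 lower and 1 higher of 10 tissue macrophage markers (96.9 and 238), 3 higher and 2 lower of 5 dendritic cell markers (219 and 154), 4 higher of 5 B cell markers (231 and 158), 3 higher of 5 NK cell markers (32.1 and 18.0) and 3 higher and 1 lower of 5 neutrophil markers (103 and 154). In Ly6Chigh monocytes they were 4 higher and 2 lower of 10 tissue macrophage markers (109 and 142), 3 lower of 5 dendritic cell markers (6.65 and 81.8), 0 of 5 B cell markers (61.0 and 80.4), 1 lower of 5 NK cell markers (4.30 and 7.997) and 2 higher and 1 lower of 5 neutrophil markers (602 and 279.5). Of the neutrophil markers in Ly6Chigh monocytes, S100a8 (422 and 62.9) and S100a9 (89.0 and 28.3) were higher and Csf3r (85.1 and 184.9) lower. The neutrophil markers Cxcr2, Ngp, Camp, Ltf and Mpo were under 1 FPKM in every value of both tables. Of the tissue macrophage markers in Ly6Chigh monocytes, C1qa, C1qb, C1qc and Mertk were higher. Emr1 (50.5 and 106) and Siglec1 (3.38 and 20.1) were lower, so the list moved in both directions. T cell markers summed to 2.90 and 4.13 FPKM and to 2.35 and 3.89, with 0 of 1 called in each table. Eosinophil and basophil markers summed to 5.63 and 2.57 and to 0.592 and 0.772, with 1 of 1, Ccr3, 3.51-fold higher in Ly6Clow monocytes and 0 called in Ly6Chigh monocytes. Erythroid and platelet markers summed to 1068 and 916, with 2 of 6 higher (Hbb-bt and Alas2), and to 506 and 588, with 2 of 6 lower (Pf4 and Ppbp). Osteoclast markers summed to 121 and 137 and to 69.9 and 69.1, mostly from Acp5, whose locus is shared with 15 rows, and Nfatc1, neither of them called. Of the 4 with FPKM of 1 or more, 1 was higher and 1 lower in each table. Ocstamp, a membrane protein of cell fusion, was higher in both, at 2.79 and 0.184 FPKM in Ly6Clow and at 7.75 and 1.62 in Ly6Chigh monocytes, and the integrin gene Itgb3 was lower in both, at 11.7 and 15.6 and at 6.11 and 10.8. Dcstamp, under 1 FPKM, was called higher in Ly6Clow monocytes at 0.723 and 0.3203. Calcr was at 0 in every value and Oscar at 0.0217 FPKM at most. These marker genes were named after their values were seen. The part of these cells in the lysosomal values was not tested.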

How the data were processed

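RNA-seq of 12 samples (4 groups of 3) was deposited as 2 gene tables of Cuffdiff layout, 1 for each monocyte subset. The authors named Trimmomatic 0.33, TopHat2 2.0.14, Bowtie2 2.2.5, Cufflinks 2.21, Cuffdiff 2.21 and the build mm10, per the submitters' processing notes; their parameters were not seen. The deposited values are read as FPKM, 1 for each condition, from the Cuffdiff layout, since the headers name no unit; the deposited p-values and q-values are the authors' own, and the deposited test statistic is a score that was not printed, per the file headers. The subset of each table was taken from the table's name, which matches the source names. FPKM as small as 2.09e-189 occur, less than 1 read could give, so whole reads could not be recovered and the depth is unknown.

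Fold changes are q2 over q1 on the log2 scale, with no pseudocount. A gene was called at the authors' q-value under 0.05 with test status OK. The q-value equals a Benjamini-Hochberg adjustment of the p-value over all tested genes, checked to within 5.72e-05. Lists were matched by symbol or synonym, with 5 symbols unmatched and left out. Loci were written with start plus 1, which equalled the RefSeq start for 50.3% of 22431 genes, against 3.01% without it. Strand and gene type are from GENCODE M21. Medians and sums are descriptions. Medians, SDs and interquartile ranges of fold changes over all tested genes leave out genes whose fold change was not finite. The plan named MDP against placebo samples, but the tables do not say which condition is which, so q2 over q1 was used. Named genes are all TFE factors, in each class the 4 called genes with the largest fold in each table, the gene with the highest FPKM and every gene called in both tables, and for other lists the 3 called genes with the largest fold; other members are named to account for the set. The members, lists and tests were chosen with earlier results of these data known. Scripts used Python 3.11.15, pandas 2.3.3, numpy 2.4.6, scipy 1.17.1 and matplotlib 3.10.9, and were tested on simulated data.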

Additional observations from a re-analysis of the deposited data

How the results depend on the processing

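The number of lysosomal genes called was 15 in Ly6Clow monocytes and 6 in Ly6Chigh monocytes. At q under 0.01 it was 9 and 3. At q under 0.05 with a fold of 2 or more it was 4 and 3, and with a fold of 1.5 or more it was 7 in Ly6Clow and 5 in Ly6Chigh monocytes. Under Bonferroni adjustment of the p-values by Cuffdiff 0 passed in each, no p-value being under 5e-05, while 20 and 14 had an unadjusted p under 0.05. Adjustment over genes with FPKM of 1 or more, an FPKM minimum of 5, no minimum, and leaving out Atp6v0c and Atp6v0c-ps2 (chosen after seeing the data) kept the counts between 14 and 16 in Ly6Clow monocytes and between 5 and 6 in Ly6Chigh monocytes. Without a minimum Ctsk was called lower in Ly6Clow monocytes. Class medians moved by more than 0.1 on the log2 scale in the cysteine cathepsins alone. They were -0.21 in Ly6Clow and -0.13 in Ly6Chigh monocytes with an FPKM minimum of 5, and -0.093 in Ly6Clow monocytes with a pseudocount of 1. Their median log2 ratio of Ly6Clow over Ly6Chigh was -0.97 in q1 alone, -0.56 in q2 alone and -0.47 with a pseudocount of 1, against -0.79, and that of the other cathepsins was -0.47 in q2 alone, against -0.30; values of q1 or q2 alone pair columns whose numbering may differ between the tables. In the other lists 13 genes were called lower in Ly6Clow monocytes, and 5 at q under 0.01, a setting chosen after seeing the data. As many were called higher there at q under 0.05, and all of those stayed called at q under 0.01. No paired analysis was possible because the tables hold no value for a single sample, and for the same reason no replicate could be left out. With 1 value per condition and no depth, precision rests on the authors' test alone.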
